A study of Mus musculus with 4 samples.

Results

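The surface epithelium and mesothelium genes are 10 rows of the count table, taken by name with no threshold on their values: the mesothelial surface genes Upk3b, Msln, Lrrn4 and Muc16, the simple epithelial keratins Krt7, Krt8, Krt18 and Krt19, and the epithelial adhesion genes Epcam and Cdh1. They were 10 of 34682 genes in the table, and 9 of them were among the 15442 genes that passed the filter on low counts. RNA was sequenced from developing mouse ovaries at E13.5 in 4 libraries, 2 of Sall1-overexpressing mutants and 2 of wild types. In the mutants, a BAC (a large cloned genomic insert) that carries the Sall1 coding sequence under Wt1 regulatory elements had been integrated with piggyBac into female embryonic stem cells whose background was C57BL/6J, or a hybrid of C57BL/6J and 129. Both groups were developing ovaries of the same stage, and the labels name no other treatment. The embryonic stem cells were selected with the antibiotic Geneticin, and transgenic mice were generated from them through morula aggregation. The number of embryos or cell clones behind a library, and the share of transgenic cells in an ovary, are not given in the sources used here. The controls are called littermates in one place and CD1 wild types in another, and the names of their columns contain B6, so a difference in strain and the transgene cannot be told apart.

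The fetal ovary is covered by the coelomic epithelium, a single layer that is continuous with the mesothelium of the body cavity. Some of its cells divide into the gonad and supply supporting cells, while the cells that stay outside form the surface epithelium. Cells of this kind are epithelial but derive from mesoderm, and they carry simple keratins beside mesothelial surface proteins. Wt1, whose elements drive the transgene, is active in the coelomic epithelium as well as in somatic cells inside the gonad. Epcam and Cdh1 are also made by fetal germ cells.

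Library totals lay between 11036313 and 17869840 counts, so that 3 counts, taken as the floor, were worth between 0.170 and 0.272 CPM (the counts-per-million scale, with the TMM factors of edgeR). Sall1, the gene overexpressed in the mutants, stood at 113 and 96.0 CPM in the mutants and at 16.2 and 12.6 CPM in the wild types, a log2 fold change of 2.85 (SE 0.16, adjusted p = 0.00823, edgeR quasi-likelihood test). Wt1, a gene of the coelomic epithelium and of gonadal somatic cells, was read at 292 CPM or more in every library. Mutant replicate 1 stood apart in some genes of stratified epithelium, which are described with the keratins. The fold changes of the members tested are given with and without each mutant replicate, and those of other genes only with both. In whole ovaries, fewer cells of a type and less RNA per cell cannot be told apart.

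None of the 9 members tested passed an adjusted p of 0.05 with the edgeR quasi-likelihood test, which called 0.0583% of all genes. At an unadjusted p of 0.05 the count was 1 of 9 (Upk3b), where 5.69% of all genes passed. DESeq2 with default settings called the same single member, Upk3b, against 0.714% of the genes to which it gave an adjusted p. Upk3b was the member that stood lowest in the mutants relative to the wild types, Krt8 and Krt19 lay near 0, and Epcam was the only one of the 9 above 0. Of the 9 fold changes 8 were below 0, with a median of -0.11 on the log2 scale, beside -0.00088 over all genes tested. For 6 of the 9 members the difference between both mutant libraries was larger than the change between genotypes.

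**Figure D1:**
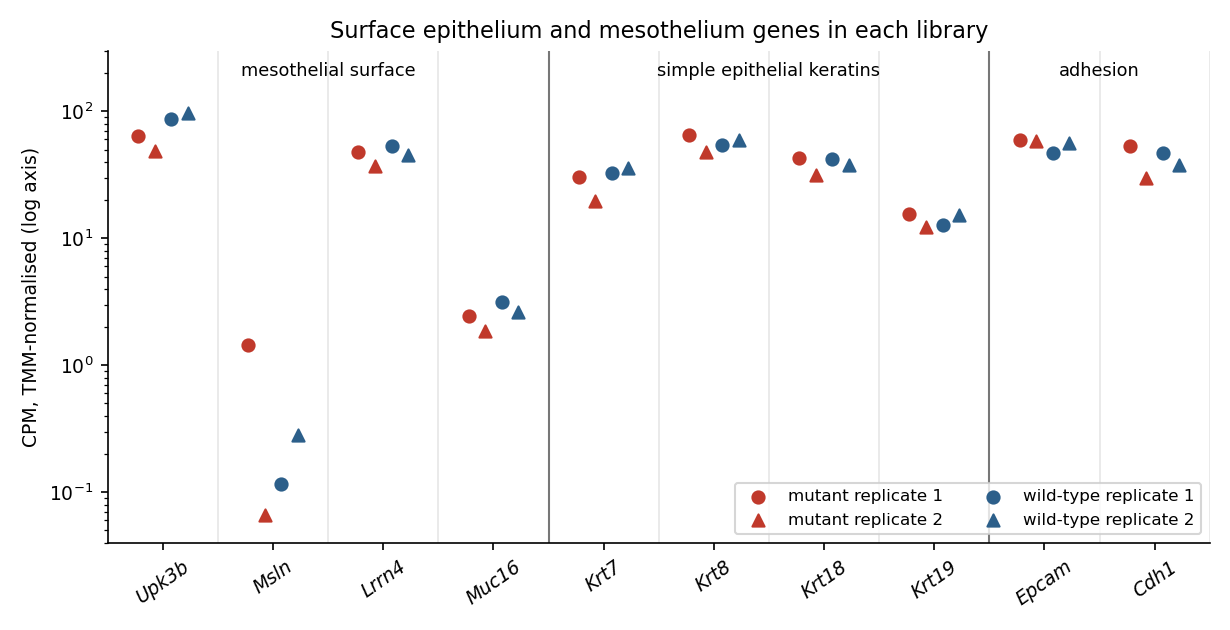
Normalised CPM of the members on a logarithmic axis, with one point for each library (2 mutant and 2 wild-type libraries). Upk3b is the clearest case of separate groups, at 63.5 and 48.3 CPM in the mutants and 86.3 and 97.8 CPM in the wild types, and Msln is close to the floor except in mutant replicate 1.

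Upk3b encodes a uroplakin, a membrane protein of the urothelial plaque family that is widely used as a marker of mesothelium. It lies on chromosome 5 from 136514366 to 136521173 on the plus strand (ENSMUSG00000042985.6, GENCODE M1 on NCBIM37, which is mm9). Upk3b had 63.5 CPM in mutant replicate 1, 48.3 in mutant replicate 2, 86.3 in wild-type replicate 1 and 97.8 in wild-type replicate 2. Both mutant libraries lay below both wild-type libraries. The means were 55.9 ± 10.7 CPM in the mutants and 92.1 ± 8.13 CPM in the wild types (SD, n = 2 each). The log2 fold change was -0.72 (SE 0.15, 95% interval from -1.08 to -0.36), with an adjusted p of 0.301 by edgeR and of 0.00532 by DESeq2. Without mutant replicate 1 the log2 fold change was -0.93 and passed (adjusted p = 0.0122, edgeR quasi-likelihood test), in a fit that called 0.81% of the genes tested and in which the remaining mutant library is assumed to vary like the wild types. Leaving out any other library gave log2 fold changes from -0.81 to -0.54, with adjusted p from 0.259 to 0.597.

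Lrrn4 encodes a membrane protein with leucine-rich repeats and is likewise a mesothelial marker. It is annotated on chromosome 2 from 132694041 to 132706627 on the minus strand. Lrrn4 had 47.7 and 36.8 CPM in the mutants and 53.0 and 45.4 CPM in the wild types. The groups overlapped, since mutant replicate 1 was above wild-type replicate 2. The log2 fold change was -0.22 (SE 0.16, 95% interval from -0.60 to 0.15).

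Muc16 encodes a large transmembrane mucin, known as CA125 in the clinic, and mesothelin, the product of Msln, is its binding partner on mesothelial cells. Muc16 was read at 27 and 28 counts in the mutants and at 54 and 46 counts in the wild types, or 2.45, 1.86, 3.14 and 2.61 CPM. Both mutant libraries were below both wild-type libraries, but the 95% interval of the log2 fold change of -0.42 ran from -1.24 to 0.40. Msln had 16 and 1 counts in the mutants and 2 and 5 counts in the wild types, and it did not pass the filter. Only mutant replicate 1 was well above the floor for Msln, and the level in mutant replicate 2 and wild-type replicate 1 did not exceed it. At this depth no difference in Msln could be measured, so a defining mesothelial gene was near the limit of detection in 3 of the 4 libraries.

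Summed over the 4 mesothelial surface genes, the level was 115 and 87.1 CPM in the mutants against 143 and 146 CPM in the wild types. The groups did not overlap, and the log2 ratio of the means was -0.51 (exact permutation test, two-sided, p = 0.333, which is the smallest p that 2 against 2 libraries can give). Upk3b made up most of the difference between these sums.

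The simple keratins form the intermediate filaments of single-layered epithelia, in which a type II keratin (Krt7, Krt8) pairs with a type I keratin (Krt18, Krt19). Krt7, Krt8 and Krt18 lie on chromosome 15, at 101241474 to 101260744 on the plus strand, 101827142 to 101834773 on the minus strand and 101858647 to 101862457 on the plus strand, while Krt19 lies on chromosome 11 from 100002124 to 100009979 on the minus strand. Krt8 had 65.1 and 48.0 CPM in the mutants and 54.7 and 59.1 CPM in the wild types. The mutant values lay on both sides of the wild-type values, and the log2 fold change was -0.013 (SE 0.16, 95% interval from -0.39 to 0.36). Krt18, the usual partner of Krt8, had 43.0 and 31.5 CPM in the mutants and 42.4 and 38.0 CPM in the wild types. Its log2 fold change was -0.11 (SE 0.17), and the groups overlapped.

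Krt19 had 15.5 and 12.2 CPM in the mutants and 12.7 and 15.1 CPM in the wild types, which gave a log2 fold change of -0.014 (SE 0.19). Krt7 differed from the other 3 keratins in that its groups did not overlap, with 30.4 and 19.5 CPM in the mutants and 32.6 and 36.0 CPM in the wild types. Its log2 fold change was -0.47 (SE 0.21, 95% interval from -0.96 to 0.03), with an unadjusted p of 0.0597 and an adjusted p of 0.905 (edgeR quasi-likelihood test). The margin was narrow, as mutant replicate 1 lay just below wild-type replicate 1. The log2 fold change of Krt7 was -0.81 without mutant replicate 1 (adjusted p = 0.0546, edgeR quasi-likelihood test) and -0.18 without mutant replicate 2, and neither passed the adjusted threshold.

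The keratins summed to 154 and 111 CPM in the mutants and 142 and 148 CPM in the wild types, a log2 ratio of -0.13 with overlapping groups (exact permutation p = 1, two-sided). Without mutant replicate 1 that ratio was -0.39, and without mutant replicate 2 it was 0.083. Per kilobase of transcript, the Krt8 to Krt18 ratio of counts was 1.17 and 1.18 in the mutants and 1.00 and 1.21 in the wild types, so both partners were read at like levels in every library.

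The adhesion genes belong to the contacts between epithelial cells. Epcam encodes a homophilic adhesion protein and is annotated on chromosome 17 from 88035319 to 88050446 on the plus strand. Epcam had 59.4 and 58.8 CPM in the mutants and 47.0 and 56.1 CPM in the wild types. Both mutant libraries were above both wild-type libraries, and the log2 fold change was 0.20 (SE 0.12, 95% interval from -0.096 to 0.49). Cdh1 encodes E-cadherin, the calcium-dependent adhesion protein of adherens junctions, and is annotated on chromosome 8 from 109127251 to 109194146 on the plus strand. Cdh1 had 52.9 and 30.1 CPM in the mutants and 47.0 and 38.0 CPM in the wild types. Its values within a genotype were further apart than the genotype means, and the log2 fold change of -0.042 had the widest 95% interval after Muc16 (from -0.65 to 0.56).

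**Figure D2:**
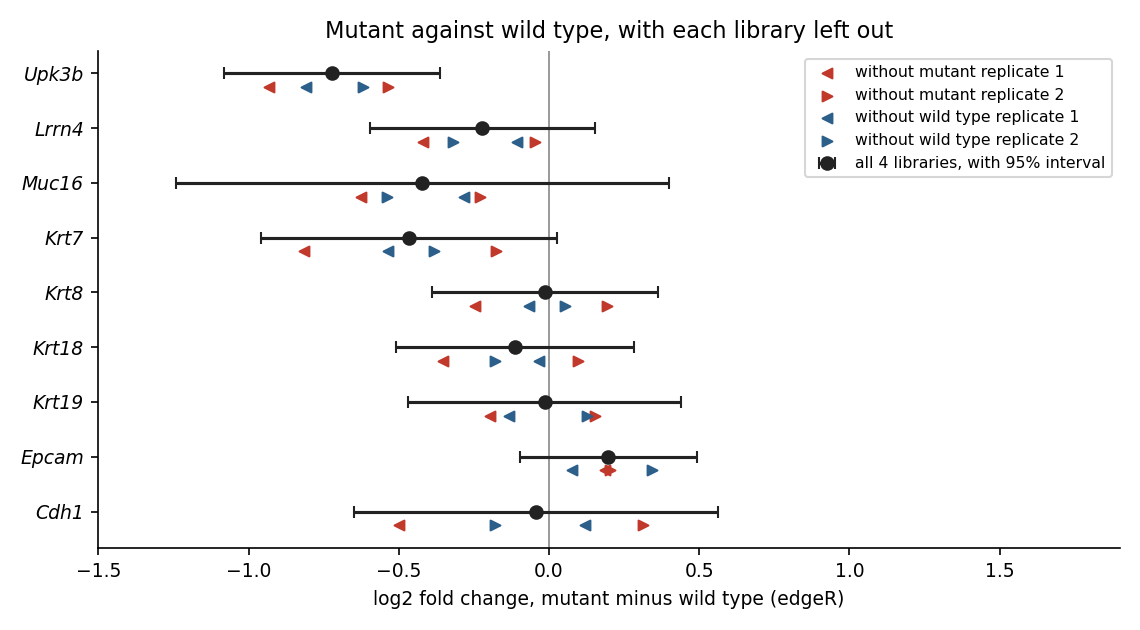
Log2 fold change of each tested member, mutant over wild type, from the edgeR fit, with bars for the 95% interval and triangles for the value when single libraries were left out. The interval of Upk3b (from -1.08 to -0.36) lies below 0, and those of the other members reach across 0.

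In total, 4 of the 9 members had groups that did not overlap, 3 of them lower in the mutants (Upk3b, Muc16 and Krt7) and 1 higher (Epcam). Over all genes tested, 30.9% did not overlap, 15.1% with the mutants below and 15.8% with the mutants above. The 4 of 9 members are to be read against this background.

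Levels of different genes were compared as CPM per kilobase of the longest annotated transcript. In the wild types the order was Upk3b at 39.2, Krt8 at 31.5, Krt18 at 28.7, Epcam at 25.3, Lrrn4 at 13.2, Cdh1 at 9.60, Krt19 at 8.84 and Krt7 at 8.38 CPM per kilobase. The libraries of Krt18 and Epcam overlapped, as did those of Cdh1 and Krt19 and of Krt19 and Krt7, and the other neighbours in this order did not. In the mutants Krt8 came first at 31.3 CPM per kilobase, before Epcam at 29.0, Krt18 at 26.6 and Upk3b at 23.8. Neighbours among these overlapped, and Upk3b did not overlap the next gene, Lrrn4. Lrrn4 (11.4), Cdh1 (9.37), Krt19 (8.78) and Krt7 (6.10 CPM per kilobase) followed in the same order as in the wild types. Lrrn4 and Cdh1 overlapped in the mutants, as did Cdh1 and Krt19, and Krt19 and Krt7 did not. Upk3b was thus first of the 8 genes in the wild types and came after Krt8, Epcam and Krt18 in the mutants. Msln was last by far, and Muc16 was left out of the order because its transcript in this annotation is short for so large a mucin. The place of Krt7 after Krt19 rests on the transcript lengths used, 4094 bases for Krt7 and 1576 for Krt19. In CPM, Krt7 was above Krt19 in every library.

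Each member was also set against Krt8 in the same library, a ratio that needs no library normalization and was chosen after the values had been seen. For each count of Krt8, Upk3b had 0.976 and 1.01 counts in the mutants and 1.58 and 1.65 in the wild types. The ratios agreed closely within each genotype and did not overlap between them (log2 ratio -0.71, exact permutation p = 0.333, two-sided). For Krt7 the ratios were 0.467 and 0.407 in the mutants and 0.596 and 0.610 in the wild types, which also did not overlap. Krt19 gave 0.238, 0.253, 0.233 and 0.256 in the same order of libraries, with overlapping groups. The ratios of Lrrn4 (0.734 and 0.767 against 0.969 and 0.768) and Muc16 did not overlap either, Lrrn4 by a narrow margin, and those of Krt18, Epcam and Cdh1 did. Krt8 was itself higher in mutant replicate 1 than in mutant replicate 2 (log2 difference 0.44), so the ratio takes out part of the spread between these libraries. The share of all genes whose ratio to Krt8 did not overlap was not computed, so these ratios have no background to be read against.

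**Figure D3:**
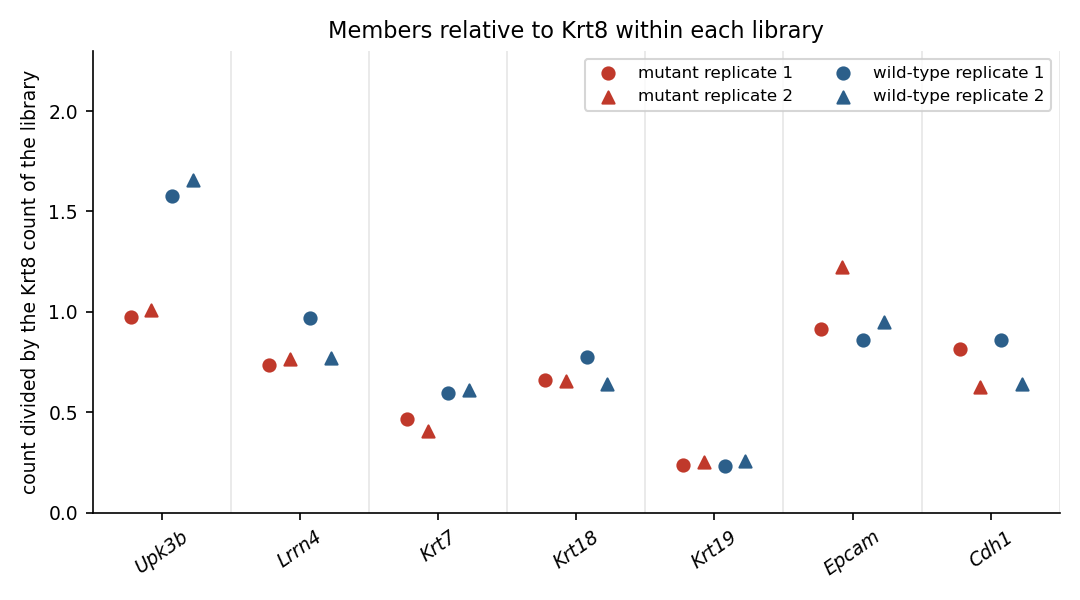
Counts of members for each count of Krt8 in the same library, on a linear axis that starts at 0, with one point for each library (Msln and Muc16 are left out for their low counts). Upk3b (0.976 and 1.01 in the mutants, 1.58 and 1.65 in the wild types) and Krt7 are separate between the genotypes, and Krt19 is not.

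The members were compared also within each genotype. Mutant replicate 1 was above mutant replicate 2 in 9 of 9 members tested, and in Msln as well, where 52.8% of all genes were higher in mutant replicate 1. The log2 difference between these libraries had a median of 0.40 over the members (from 0.016 for Epcam to 0.81 for Cdh1), beside 0.018 over all genes (quartiles -0.17 and 0.23). Between the wild-type libraries the median was -0.11 (from -0.26 to 0.31), with 4 of 9 members higher in replicate 1. Without mutant replicate 1, the median log2 fold change of the 9 members was -0.42, and without mutant replicate 2 it was 0.096 over the same 9, so that the sign of the median rested on which mutant library was kept. Without mutant replicate 1, Lrrn4 stood at -0.42, Muc16 at -0.63, Krt8 at -0.25, Krt18 at -0.35, Krt19 at -0.20, Cdh1 at -0.50 and Epcam at 0.19 on the log2 scale, and none of these passed the adjusted threshold. Without mutant replicate 2, Upk3b stood at -0.54, Muc16 at -0.23, Krt7 at -0.18 and Lrrn4 at -0.045 on the log2 scale. In that fit Krt18 stood at 0.096, Krt19 at 0.15, Krt8 at 0.19, Epcam at 0.20 and Cdh1 at 0.31. The log2 ratio of the mesothelial sum was -0.73 without mutant replicate 1 and -0.33 without mutant replicate 2.

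Some of the other keratins showed where mutant replicate 1 stood apart. The table held 52 genes with keratin symbols, of which 15 passed the filter, 12 had a mean of at least 1 CPM and 10 had no count in any library. None of the 15 was called by edgeR or DESeq2, and at an unadjusted p of 0.05 there was 1 higher gene, Krt15 (3.03 on the log2 scale), and 1 lower gene, Krt24 (-1.47), which was below 1 CPM in every library. Krt5, the type II keratin of basal cells in stratified epithelia, had 148 counts in mutant replicate 1, 0 in mutant replicate 2, and 32 and 6 in the wild types. Krt15, a basal type I keratin, had 88 and 5 counts in the mutants and 12 and 5 in the wild types, and Krt6a had 10 counts in mutant replicate 1 and 0 in the other 3 libraries. Krt14, the partner of Krt5, did not follow this, with 54 and 18 counts in the mutants and 82 and 65 in the wild types. Nor did Krt10, Krt17 and Krt1, which are also keratins of stratified epithelia. Krt10 had 67 and 83 counts in the mutants and 98 and 116 in the wild types. Krt17 had 16 and 11 against 25 and 14 counts, and Krt1 had 7 and 13 against 13 and 18. Summed over Krt5, Krt14, Krt15 and Krt6a, a sum chosen after the values had been seen, the level was 27.2 and 1.53 CPM in the mutants and 7.32 and 4.31 CPM in the wild types. Trp63, the transcription factor of basal epithelial cells, had 33 counts in mutant replicate 1 against 10, 16 and 16 in the other libraries. The part of such cells in the members' values was not tested.

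The keratins above 1 CPM other than the members, Krt5, Krt14 and Krt15 gave fold changes near 0. Krt20, a type I keratin of simple epithelia, had 109 and 102 counts in the mutants and 172 and 138 counts in the wild types, a log2 fold change of -0.10 (SE 0.26). Krt10, Krt17, Krt79 and Krt222 had log2 fold changes between -0.24 and 0.15.

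**Figure D4:**
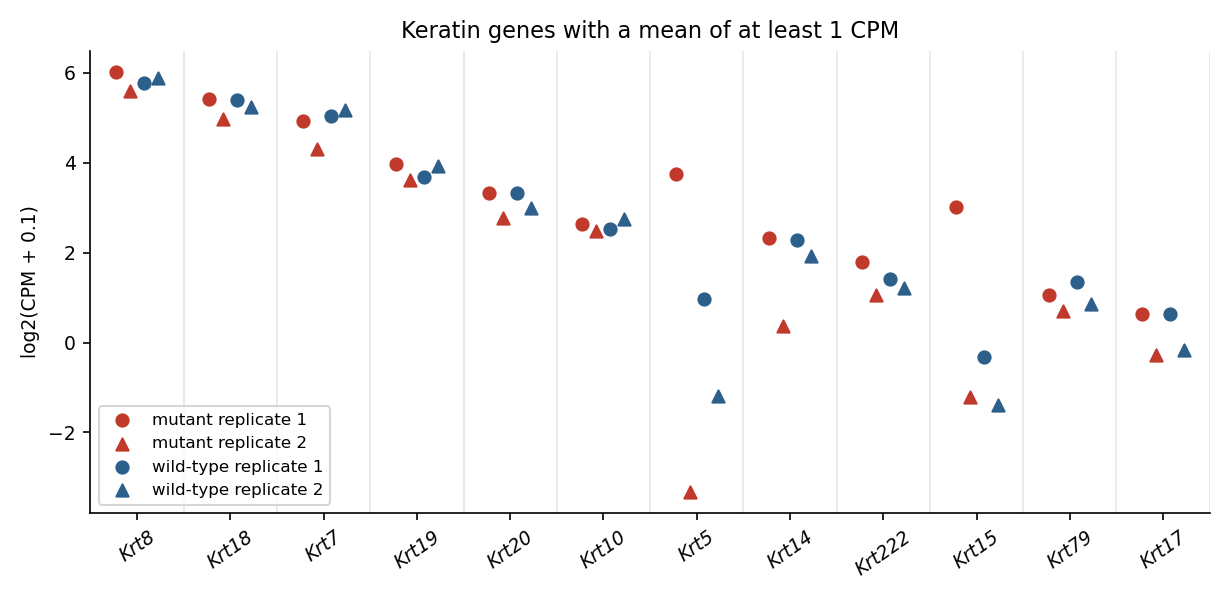
Keratin genes with a mean of at least 1 CPM, shown as log2(CPM + 0.1) with one point for each library. Krt5 and Krt15 are high in mutant replicate 1 (13.4 and 7.98 CPM), Krt5 has no count in mutant replicate 2, and the simple keratins Krt7, Krt8, Krt18 and Krt19 vary less.

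Of 16 further genes of mesothelium and coelomic epithelium, all tested, edgeR called 0, while 3 were higher and 2 lower at an unadjusted p of 0.05. Over all genes tested 5.69% passed that threshold, which is also the background for the lists that follow. Without overlap of the groups, 4 were higher and 3 lower, beside 15.8% and 15.1% of all genes. Aldh1a2, which makes retinoic acid, had 78.8 and 60.6 CPM in the mutants and 137 and 146 CPM in the wild types, a log2 fold change of -1.03 (SE 0.14, adjusted p = 0.106 by edgeR and 3.06e-08 by DESeq2). Gpm6a, a membrane glycoprotein, was lower at the unadjusted threshold only (-0.91). Lgr5, a receptor for R-spondins, had 164 and 152 CPM in the mutants and 109 and 97.3 CPM in the wild types, with a log2 fold change of 0.61 (SE 0.10, adjusted p = 0.176 by edgeR and 0.00189 by DESeq2). Aldh1a1, another retinaldehyde dehydrogenase, and Efemp1, a matrix protein, had log2 fold changes of 0.46 and 0.99. Bnc1, a zinc finger factor of mesothelium, had a log2 fold change of -0.095 and Wt1 of 0.03, so this list held genes on both sides of 0 and its median was -0.070.

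Among 34 genes of cell junctions and epithelial polarity 32 were tested, and 0 were called by edgeR or DESeq2. At an unadjusted p of 0.05 there were 5 higher genes and 1 lower gene, and without overlap of the groups 14 were higher and 2 lower, beside the 15.8% and 15.1% of all genes given above. The higher ones at the unadjusted threshold were the desmosomal genes Pkp2 (log2 fold change 0.45), Dsg2 (0.45) and Pkp1 (1.91), the catenin Ctnnd1 (0.29) and the claudin Cldn4 (1.48), of which Pkp1, Cldn4 and Ctnnd1 were highest in mutant replicate 1. Cdh2, which encodes N-cadherin, the cadherin of the mesothelium and of many mesenchymal cells, was the lower one, at 68.0 and 72.6 CPM in the mutants and 93.9 and 93.9 CPM in the wild types (-0.42, SE 0.097, adjusted p = 0.368, edgeR quasi-likelihood test). The median of this list was 0.16.

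Of 13 regulators of epithelial transcription and splicing, 10 were tested and 0 reached an unadjusted p of 0.05 in edgeR or were called by DESeq2, and the 3 with the smallest p were Esrp1 (0.22), Trp63 (0.95) and Ovol2 (-0.40 on the log2 scale). Among 13 genes of the transition from epithelium to mesenchyme, 0 were called by edgeR and 2 were lower at an unadjusted p of 0.05. Snai2, a zinc finger repressor of Cdh1, had 28.1 and 22.8 CPM in the mutants and 38.4 and 45.4 CPM in the wild types, with a log2 fold change of -0.72 (SE 0.15, adjusted p = 0.309 by edgeR and 0.0479 by DESeq2). Zeb2, a repressor of the same target, followed with -0.32, and Vim, the intermediate filament gene of mesenchyme, with -0.19. Of 5 other uroplakins, Upk1b (-0.34) and Upk2 (0.71) were tested and neither passed, Upk1a and Upk3a stood at 9 counts or fewer in every library, and Upk3bl had 0 counts in all libraries.

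**Figure D5:**
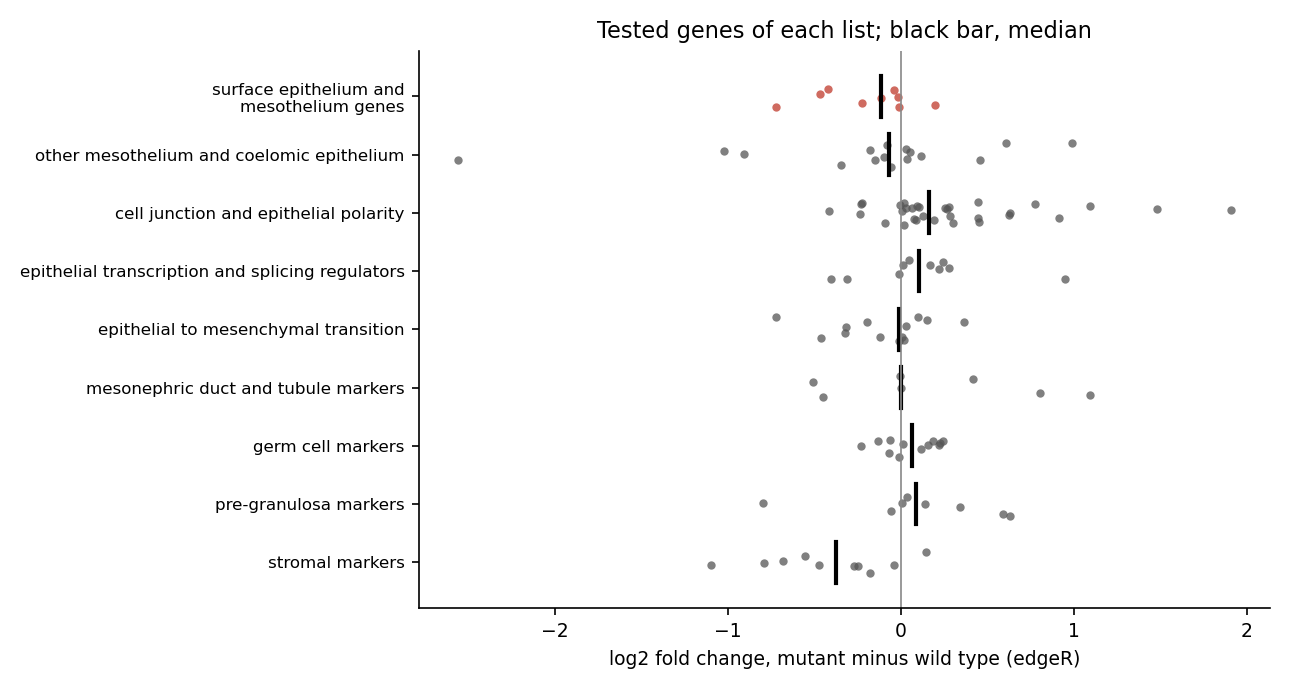
Log2 fold changes, mutant over wild type, of the tested genes among the members and in 8 gene lists, with one point for each gene and the list's median marked. The median of the 9 tested members is -0.11, that of the stromal markers -0.37 and that of the junction and polarity genes 0.16.

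The markers of other cell types that the dissected tissue could hold were read in the same libraries, and edgeR called 0 of them, whereas DESeq2 called genes that included Tcf21, Pdgfra, Lum and Bmp2, each lower in the mutants. Stromal markers summed to 2783 and 1796 CPM in the mutants and 2577 and 2632 CPM in the wild types, and those with the smallest p, Tcf21 (-1.10), Pdgfra (-0.55) and Lum (-0.79), were lower at an unadjusted p of 0.05. The median log2 fold change of the 10 stromal markers was -0.37. Blood and macrophage markers summed to 3227 and 900.2 CPM in the mutants and 3528 and 1710 CPM in the wild types, with log2 fold changes of 0.43 for Csf1r and -0.37 for Ptprc. Germ cell markers, of which 12 of 12 were tested and 0 passed the unadjusted threshold, summed to between 1922 and 2079 CPM in the mutants and between 1923 and 2013 CPM in the wild types, and the smallest p belonged to Kit (0.19), Ddx4 (0.16) and Pou5f1 (-0.13). Pre-granulosa markers, the somatic cells that form follicles, summed to 634 and 629 CPM in the mutants and 588 and 611 CPM in the wild types, with Foxl2 (0.59) and Irx3 (0.34) higher and Bmp2 (-0.80) lower at the unadjusted threshold among 8 tested. Endothelial markers summed to 441 and 421 CPM against 461 and 476 CPM, with Kdr lower (-0.46) among 6, followed by Tie1 (-0.23) and Cdh5 (0.027). Markers of the mesonephric duct and tubules, an epithelium next to the ovary, summed to 178 and 193 CPM in the mutants and 167 and 194 CPM in the wild types, most of it from Emx2, which the gonad and its coelomic epithelium also express. Without Emx2, a sum chosen after the values had been seen, they summed to 39.3 and 52.4 CPM against 37.9 and 42.3 CPM. Of the 7 tested in the whole list, Pax8 was higher (0.80) at the unadjusted threshold, and Ret (-0.51) and Cdh16 (1.10) came next by p. The groups of Cdh16 overlapped (SE 0.77), at 2.18 and 6.38 CPM in the mutants and 0.639 and 3.40 CPM in the wild types. Wnt9b, not tested, had 7 and 3 counts in the mutants and 0 and 4 counts in the wild types. The part of these cell types in the members' values was not tested.

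The genes whose profile over the 4 libraries was nearest to that of a member were found by the distance between log2 CPM centred on its mean, among 15441 genes. For Upk3b, the nearest was Gm6213 (distance 0.069), followed by Snai2 (0.079) and Cd40 (0.080), of which Gm6213 and Cd40 were below 3 CPM in every library. Krt7 was the nearest other member to Upk3b, at rank 116. For Krt8, Prpf39 and Dusp7 were among the 3 nearest (both at 0.020), and Krt19 was the nearest other member at rank 113. For Epcam, Plk2, Nfkbib and Twf1 were nearest (0.016 to 0.032). With 4 libraries many genes lie close together by this measure.

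The promoters of 7 of the 10 members were matched by symbol in the RefSeq table of GRCm38.p6, a later build than that of the gene positions above. Shown are the 250 bases before the start of Upk3b and of Krt7, whose mutant libraries lay below the wild types, and of Krt8, whose groups overlapped. Capitals mark the GC box GGGCGG and the sequence CAGGTG, an E-box bound by Snail and Zeb factors, each on either strand. The windows are chr5:136038246-136038495 on the plus strand for Upk3b, chr15:101412153-101412402 on the plus strand for Krt7 and chr15:102004343-102004592 on the minus strand for Krt8.
Upk3b: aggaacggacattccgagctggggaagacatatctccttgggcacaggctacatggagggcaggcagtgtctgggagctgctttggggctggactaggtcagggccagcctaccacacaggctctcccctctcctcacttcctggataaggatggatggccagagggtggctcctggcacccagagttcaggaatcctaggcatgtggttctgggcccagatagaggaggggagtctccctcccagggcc
Krt7: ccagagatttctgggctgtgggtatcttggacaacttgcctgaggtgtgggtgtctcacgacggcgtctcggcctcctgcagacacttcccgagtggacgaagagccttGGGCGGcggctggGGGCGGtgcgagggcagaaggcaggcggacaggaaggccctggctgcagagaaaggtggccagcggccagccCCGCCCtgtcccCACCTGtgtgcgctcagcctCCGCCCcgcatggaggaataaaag
Krt8: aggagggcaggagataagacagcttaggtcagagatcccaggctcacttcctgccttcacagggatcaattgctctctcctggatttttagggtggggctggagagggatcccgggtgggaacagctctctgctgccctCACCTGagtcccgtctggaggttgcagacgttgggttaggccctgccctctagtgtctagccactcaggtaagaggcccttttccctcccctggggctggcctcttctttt

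Krt7 held 4 GC boxes and 1 CAGGTG, which lay 44 bases before the start on the reverse strand. Krt8 held 1 CAGGTG, 111 bases before the start on the reverse strand, and no GC box. In the promoter of Upk3b neither was found, and the same was true of Lrrn4 and Muc16. Krt18 held 1 CAGGTG and Epcam held 2 with 1 GC box. Of the 7 members, 4 held CAGGTG, which occurs in 17.2% of 32851 promoters of this length, and 2 held GGGCGG, which occurs in 32.7%. The sequence TATAAA was found in 0 of 7, beside 12.4% of all promoters. None of these motifs overlapped another in the windows shown.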

How the data were processed

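Ovaries at E13.5 were sequenced in 2 mutant and 2 wild-type libraries. The authors aligned the reads with STAR 2.6.1d to mm9 (per the labels' processing notes) and counted reads per gene with summarizeOverlaps, and they deposited the raw counts of each library. The annotation and strand setting are not given in the sources used here, so counts of overlapping genes on opposite strands are uncertain. All columns were matched to libraries by name (0 columns unused). The members were named, and the lists chosen, with earlier results of these data known.

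In R 4.3.3, edgeR 4.0.16 was run on all 4 libraries with TMM factors, filterByExpr (15442 of 34682 genes left), genotype as the only factor, the quasi-likelihood F-test and Benjamini-Hochberg adjustment over all genes tested, at an adjusted p of 0.05. The fit was tested only on simulated data with changes larger than those of the members and with independent libraries. That test does not cover changes as small as the members showed. Standard errors were obtained by dividing the log2 fold change by the root of F. DESeq2 1.42.0 (defaults), other normalizations, filters and tests, a replicate block and leaving out each library were alternatives. Sums and ratios were tested with an exact permutation test. The floor of 3 counts covers counting error only. Since nothing says that replicates came from separate litters, p-values measure the spread between these libraries, which may be technical. Within a genotype the libraries differed beyond sampling noise (chi-square of 11.8 and 13.2 for each degree of freedom).

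Named were all members, the 3 genes of a list with the smallest p and those that a small count refers to, keratins with a mean of at least 1 CPM, the 3 genes nearest in profile to the highest member of each role, and Sall1. Krt6a was picked for its values. Some genes that this rule names are not reported here. Gene positions and transcript lengths are from GENCODE M1.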

Additional observations from a re-analysis of the deposited data

How the results depend on the processing

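The number of genes called was 9 with the edgeR quasi-likelihood test, 105 with DESeq2, 28 without a filter, 19 with at least 10 counts in every library, 134 with the likelihood ratio test, and 4 to 130 when single libraries were left out. RLE and upper-quartile normalization each gave 10. The number of members called was 0, became 1 (Upk3b) with DESeq2 and with the likelihood ratio test (adjusted p = 0.00860), and was 0 to 1 when single libraries were left out, the 1 arising without mutant replicate 1. Replicate numbers are shared between the groups, and same-numbered libraries carry neighbouring library numbers in the column names, but no label says that they mark a litter or batch. The deviations of same-numbered libraries correlated at 0.481, and a fit with the replicate block called 385 genes, 1 of them a member (Upk3b, adjusted p = 0.00258).

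With single libraries left out, the log2 ratio of the mesothelial sum ranged from -0.73 to -0.33, of the keratin sum from -0.39 to 0.083, of the adhesion sum from -0.082 to 0.26 and of the Krt8 to Krt18 ratio from -0.034 to 0.23. The log2 fold change ranged from -0.81 to -0.18 for Krt7, from -0.42 to -0.045 for Lrrn4, from -0.63 to -0.23 for Muc16, from -0.50 to 0.31 for Cdh1, from -0.35 to 0.096 for Krt18, from -0.20 to 0.15 for Krt19 and from -0.25 to 0.19 for Krt8, and the sign of the last 4 depended on the library left out; the cause was not tested. Of 99 alternative values of single members, 88 kept their direction and side of the threshold, 7 changed sign and 4, all of Upk3b, passed the threshold. Upk3b was lower in the mutants under every alternative run. Low counts limit Msln and Muc16.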
